A study of Sus scrofa with 15 samples.

Results

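The 9 genes SREBF2, SCAP, INSIG1, NR1H3, SOAT1, NPC1, ABCA1, ABCG1 and APOE sense, store and export cholesterol, and their transcripts were measured in the backfat of Iberian pigs. They were chosen by name for these functions, with earlier results of these data known, and all 9 were found among the 30477 genes listed for each library. All 9 also passed the filter on low counts, which kept 14918 genes. Each of the 15 RNA-seq libraries came from the subcutaneous backfat of 1 pig, with 5 pigs on the control diet (C), 5 on a compound feed with dry olive pulp (DOP) and 5 on a compound feed without by-product plus a silage of wet crude olive cake and barley straw (WCOC). All pigs were of the Iberian breed and in the growing period.

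Cells hold their sterol content within narrow bounds through a pair of opposed sensors. When sterol in the endoplasmic reticulum is low, the escort protein SCAP carries the precursor of SREBP-2, the product of SREBF2, to the Golgi, where it is cut to release an activator of the genes for sterol synthesis and uptake. When sterol is high, INSIG1 holds SCAP back, oxysterols activate the liver X receptor encoded by NR1H3, its targets ABCA1 and ABCG1 export cholesterol to lipoproteins, and SOAT1 esterifies the excess for storage. Adipose tissue is a large reservoir of free cholesterol, and the macrophages within it esterify and export sterol as well.

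Each diet was fed to 1 pen, so pen and diet cannot be told apart. The compound feeds were restricted and the silage was offered freely, and the biopsies sequenced had been picked for the amount and quality of their RNA. Flow cell, read from the run identifiers, was B for each DOP library and for control replicate 5. The remaining 9 libraries, 4 controls and the 5 of WCOC, ran on flow cell A, so the contrast of DOP with either diet cannot be told apart from the flow cell except through control replicate 5. The total count on genes ran from 22373715 to 34745218 per library, and each replicate was a separate pig. Marker genes of adipocytes were abundant in each library, ADIPOQ leading with 3691 ± 549 scaled counts (CPM, reads scaled to a common library size) in C (SD, n = 5). DOP replicates 2, 4 and 5 carried summed CPM of 5546 to 42918 on 7 skeletal muscle markers, against 17.8 to 3360 in the other 12 libraries. C replicates 3 and 5 carried 1252 and 1496 CPM on 16 macrophage markers, against 230 to 629 in the other 13.

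In the Sscrofa11.1 assembly SREBF2 (ENSSSCG00000026092) spans chr5:6719484-6784724 on the minus strand, SCAP (ENSSSCG00000026281) chr13:30253262-30320625 on the minus strand, and INSIG1 (ENSSSCG00000016420) chr18:2885494-2898758 on the minus strand. NR1H3 (ENSSSCG00000013241) spans chr2:15315283-15336785 on the minus strand and overlaps MADD on the same strand and ACP2 on the opposite one, so its counts are uncertain. SOAT1 (ENSSSCG00000021464) lies at chr9:121045211-121112393 on the plus strand. NPC1 (ENSSSCG00000003707) lies at chr6:108403126-108450486 on the minus strand and overlaps C6H18orf8 on the opposite strand, so its counts are uncertain too. ABCA1 (ENSSSCG00000005423) spans chr1:246144277-246278492 on the minus strand and ABCG1 (ENSSSCG00000027745) chr13:205561897-205628428 on the plus strand. APOE (ENSSSCG00000003088) lies at chr6:51373113-51375333 on the plus strand, in a gene model that the annotation marks as partial. HTSeq counts were made over Ensembl genes, and these positions are those of the RefSeq annotation of the same assembly.

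The 250 bases before the annotated start of 4 members are shown, because INSIG1 and SOAT1 are the members that fell, SREBF2 encodes the activator that INSIG1 restrains, and ABCA1 is the best known exporter under the control of NR1H3. They are RefSeq sequence of Sscrofa11.1, written 5′ to 3′ on the strand of the gene, at chr18:2898759-2899008, chr9:121044961-121045210, chr5:6784725-6784974 and chr1:246278493-246278742 in that order. Capitals mark matches to the motifs named beneath.
INSIG1: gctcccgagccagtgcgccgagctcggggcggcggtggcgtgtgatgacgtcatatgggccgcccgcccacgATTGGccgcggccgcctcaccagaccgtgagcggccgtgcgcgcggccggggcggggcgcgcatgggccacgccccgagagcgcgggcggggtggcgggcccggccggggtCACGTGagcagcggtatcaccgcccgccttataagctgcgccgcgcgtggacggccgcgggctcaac
SOAT1: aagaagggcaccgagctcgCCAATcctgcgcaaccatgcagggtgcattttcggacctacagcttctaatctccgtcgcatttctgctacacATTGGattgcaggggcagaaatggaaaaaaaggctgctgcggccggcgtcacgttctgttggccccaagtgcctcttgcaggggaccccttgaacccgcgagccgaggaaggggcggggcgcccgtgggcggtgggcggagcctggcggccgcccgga
SREBF2: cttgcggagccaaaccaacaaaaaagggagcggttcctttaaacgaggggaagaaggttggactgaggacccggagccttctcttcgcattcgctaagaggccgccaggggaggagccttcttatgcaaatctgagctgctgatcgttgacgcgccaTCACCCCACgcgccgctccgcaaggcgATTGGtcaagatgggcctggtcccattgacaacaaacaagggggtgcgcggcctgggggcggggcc
ABCA1: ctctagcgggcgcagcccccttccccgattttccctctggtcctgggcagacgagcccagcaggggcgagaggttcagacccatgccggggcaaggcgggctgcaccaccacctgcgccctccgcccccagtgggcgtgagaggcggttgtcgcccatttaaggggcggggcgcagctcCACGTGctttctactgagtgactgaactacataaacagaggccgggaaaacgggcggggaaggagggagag

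A window of 300 bases, which adds the first 50 bases of the gene, was searched on both strands for 4 motifs in 19548 promoters. The core of a sterol regulatory element, TCACNCCAC, was found in 0.916% of all promoters and, among the 9 members, in SREBF2 alone, from position -93 to -85 before the start. The E-box CACGTG, which other factors with a helix-loop-helix domain also bind, was found in 7.92% of all promoters and in INSIG1 (-67 to -62) and ABCA1 (-71 to -66). The CCAAT box was found in 35.4% of all promoters. It stood in SOAT1 (-231 to -227, -158 to -154 on the minus strand, and 4 to 8 inside the gene), SREBF2 (-66 to -62, minus strand), INSIG1 (-178 to -174, minus strand), ABCG1 (-59 to -55) and APOE (6 to 10 inside the gene). Exact direct repeats of AGGTCA with a spacer of 4 bases, the consensus element of the liver X receptor, occurred in 0.0102% of all promoters and in no member. Only exact copies were counted for each motif, and those of the liver X receptor element stood in 2 of 19548 promoters. The search therefore cannot decide whether a member, ABCA1 included, holds a liver X receptor element with other letters. The same holds for the sterol regulatory element in INSIG1 and the other members without an exact copy. SCAP, NR1H3 and NPC1 held none of the 4 motifs in this window. These matches describe letters and not binding. The APOE model is partial, so its annotated start may not be the start of transcription. Its window may then not be a promoter, and its match and its lack of the other motifs are uncertain.

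**Figure D1:**
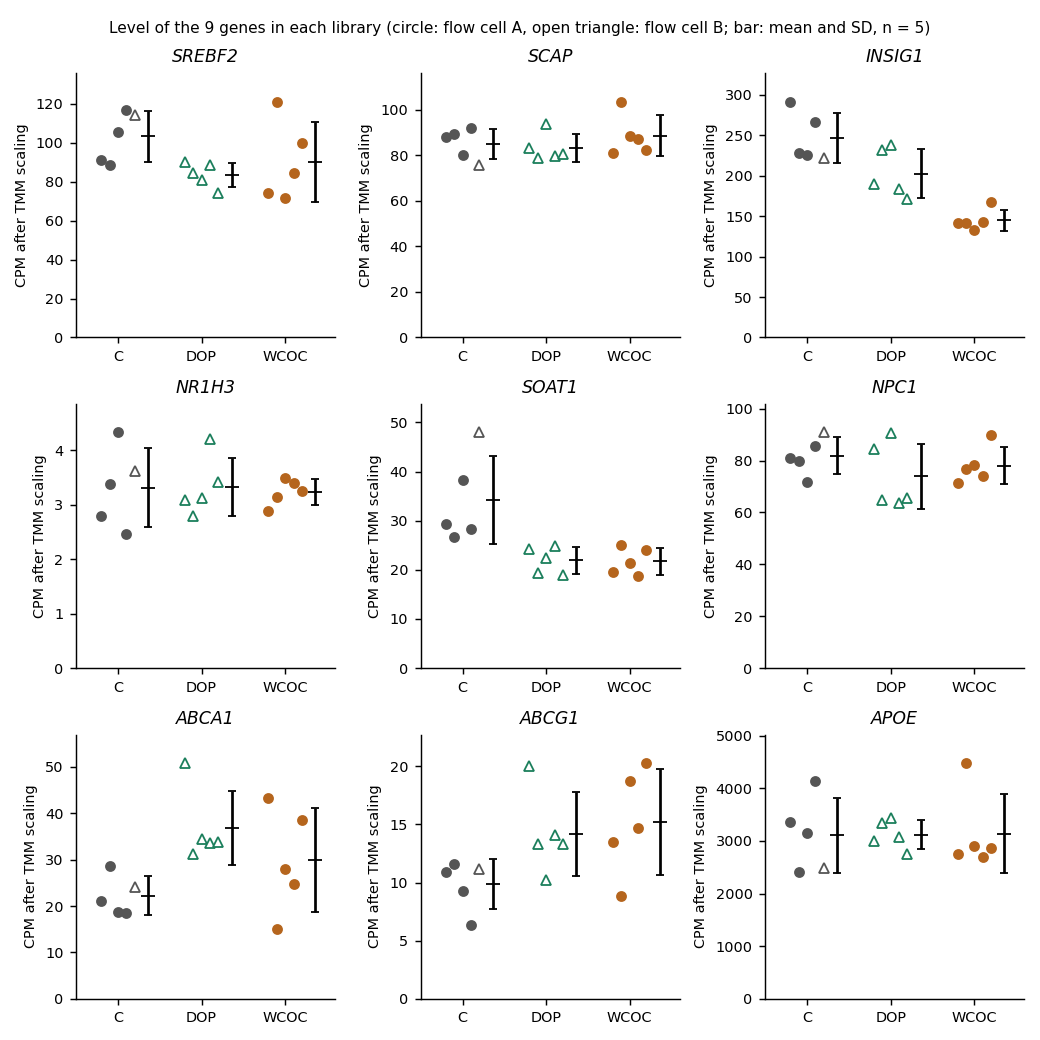
Level of the 9 genes in each of the 15 libraries, in CPM after TMM scaling, by diet. Circles are libraries of flow cell A, open triangles those of flow cell B, and bars give the mean and SD of 5 libraries. INSIG1 is lower in all 5 WCOC libraries than in any other library, SOAT1 is lower in all DOP and WCOC libraries than in any control, and ABCA1 is higher in all DOP libraries than in any control.

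Against the control diet, transcripts of INSIG1 and SOAT1 were lower in WCOC. Whether the retention of SCAP or the esterification of sterol differed was not measured. INSIG1 was 41.2% lower and SOAT1 36.3% lower, and these 2 of the 9 members passed both limits, an adjusted p under 0.05 and a log2 fold change (log2FC) of at least 0.58 in size. Over all tested genes 6.25% passed both limits in this comparison and 3.93% did so in the lower direction. In DOP against C none of the 9 passed both limits in edgeR, against 0.764% of all genes, while 5 had an unadjusted p under 0.05, as did 17.6% of all genes. DESeq2 called SOAT1 and limma-voom none. In WCOC against DOP none passed both limits, against 7.76% of all genes, and 1 had an unadjusted p under 0.05, as did 28.1% of all genes. DESeq2 and limma-voom called none there either. The comparisons with C share the same 5 control libraries. In bulk tissue fewer cells of a type and less RNA per cell cannot be told apart.

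INSIG1 is the retention protein that anchors SCAP in the endoplasmic reticulum when sterol is abundant. Its level was 291, 228, 226, 267 and 222 CPM in C replicates 1 to 5, 189, 232, 237, 183 and 171 CPM in DOP, and 141, 141, 133, 143 and 167 CPM in WCOC. All 5 WCOC libraries lay below all 10 others, whereas the DOP libraries overlapped the controls. No overlap was seen for 7.62% of all tested genes in WCOC against C (3.87% lower) and for 8.9% in WCOC against DOP (4.77% lower). The mean was 247 ± 31 CPM in C, 202 ± 30 in DOP and 145 ± 13 in WCOC (SD, n = 5 each).

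For WCOC against C the log2FC of INSIG1 was -0.77 (SE 0.11, adjusted p = 0.00133). It passed both limits in each of 10 alternative analyses and in each of the 10 fits that left out 1 library, with a log2FC of -0.82 to -0.71 over the latter. For DOP against C the log2FC was -0.29 (SE 0.11, adjusted p = 0.209), short of both limits. The difference between the olive diets was -0.48 (SE 0.11, adjusted p = 0.0159) for WCOC against DOP, past the adjusted p but under the fold limit. The adjusted p alone was passed by 12.3% of all genes, and 4.59% of all genes passed it with a log2FC under the fold limit. With flow cell as a covariate that difference was -0.67 with an adjusted p of 0.309. It was -0.48 (adjusted p = 0.0625) with the replicate numbers as a block and -0.57 (adjusted p = 0.103) without DOP replicates 2, 4 and 5. In the covariate fit only control replicate 5 ties the flow cells together, and its INSIG1 level of 222 CPM was the lowest of the controls. The summed CPM of 9 adipocyte markers was 12927 to 17336 in C, 15600 to 20325 in DOP and 15936 to 22495 in WCOC.

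SREBF2 encodes the activator that INSIG1 restrains, and its transcript passed neither limit in any comparison. In C it stood at 91.1, 88.3, 106, 117 and 114 CPM, in DOP at 89.8, 84.3, 80.8, 88.3 and 74.3 CPM, and in WCOC at 73.9, 121, 71.7, 84.3 and 100.01 CPM. The diets overlapped, and WCOC held both the highest and the lowest library. The log2FC was -0.31 in DOP against C (SE 0.13, adjusted p = 0.251) and -0.19 in WCOC against C (SE 0.13, adjusted p = 0.373). In WCOC against DOP it was 0.11, with a 95% interval of -0.15 to 0.37.

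SCAP, the escort protein, had the steadiest level of the 9. It ran between 75.9 and 92.0 CPM in C, 78.8 and 94.0 in DOP, and 80.9 and 104 in WCOC. The 95% interval of its log2FC was -0.19 to 0.13 in DOP against C, -0.10 to 0.22 in WCOC against C and -0.07 to 0.25 in WCOC against DOP. Its spread within diets was 0.12 on the log2 scale, below the 0.20 that is the median over tested genes of at least 5 CPM.

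The count of INSIG1 reads per SREBF2 read, a ratio chosen after the values were seen and given without a test, was 1.94 to 3.20 in C, 2.07 to 2.94 in DOP and 1.17 to 1.91 in WCOC. All 5 WCOC libraries lay below all 10 others in this ratio, by a narrow margin. It was lowest, at 1.17, in WCOC replicate 2, where SREBF2 was highest.

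NR1H3 encodes liver X receptor alpha, a sterol-activated receptor of the export genes. It was the least abundant member, with 57 to 136 reads per library. Its level ran between 2.45 and 4.33 CPM in C, 2.79 and 4.21 in DOP, and 2.88 and 3.49 in WCOC, so that the WCOC and DOP libraries fell inside the range of the controls. The log2FC was 0.0027 for DOP and -0.038 for WCOC against C, with 95% intervals of -0.32 to 0.33 and -0.36 to 0.28.

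ABCA1 passes cholesterol and phospholipid to lipid-poor apolipoprotein. It stood at 21.1, 28.6, 18.8, 18.5 and 24.0 CPM in C, at 50.9, 31.2, 34.4, 33.5 and 33.8 CPM in DOP, and at 43.3, 15.05, 28.0, 24.7 and 38.6 CPM in WCOC. All DOP libraries lay above all controls, while WCOC spanned from below the lowest control to far above the highest.

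The log2FC of ABCA1 for DOP against C was 0.73 (SE 0.24, 95% interval 0.27 to 1.19), a 1.66-fold higher level, but its adjusted p of 0.144 did not pass. ABCA1 and SOAT1 were the 2 members whose DOP and C libraries did not overlap, in opposite directions, where 3.47% of all genes showed no overlap, 1.7% higher and 1.76% lower. For WCOC against C the log2FC of ABCA1 was 0.43 (SE 0.23, adjusted p = 0.258). Control replicate 5, the control on the flow cell of the DOP libraries, stood at 24.0 CPM, within the range of the other controls.

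ABCG1 moves cholesterol toward mature high-density lipoprotein. In C it stood at 10.9, 11.6, 9.27, 6.39 and 11.2 CPM, in DOP at 20.04, 13.3, 10.2, 14.05 and 13.3 CPM, and in WCOC at 13.5, 8.83, 18.7, 14.7 and 20.3 CPM. In each olive diet 4 of 5 libraries lay above all controls. The log2FC was 0.52 in DOP (SE 0.23, adjusted p = 0.254) and 0.62 in WCOC (SE 0.23, adjusted p = 0.0975), and neither passed. Without WCOC replicate 2, the lowest of its diet, the WCOC value was 0.76 with an adjusted p of 0.0277, past both limits. That library also held the lowest ABCA1 level of all 15.

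**Figure D2:**
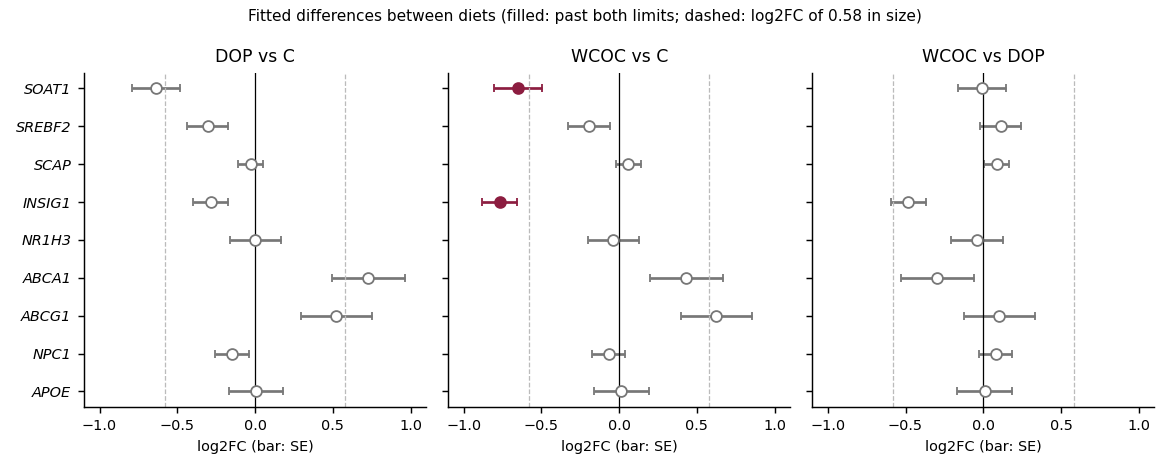
Fitted log2FC of the 9 genes with SE bars in DOP against C, WCOC against C and WCOC against DOP. Filled points pass both limits and dashed lines mark a log2FC of 0.58 in size. INSIG1 (-0.77) and SOAT1 (-0.65) in WCOC against C are the filled points.

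SOAT1 is the enzyme of the endoplasmic reticulum that joins cholesterol to a fatty acid. It stood at 29.4, 26.7, 38.3, 28.3 and 48.0 CPM in C, at 24.1, 19.4, 22.3, 24.8 and 18.97 CPM in DOP, and at 19.6, 25.04, 21.4, 18.6 and 24.1 CPM in WCOC. Each of the 10 libraries of the olive diets lay below each control, and the 2 olive diets overlapped fully. INSIG1 and SOAT1 were the 2 members without overlap in WCOC against C, where 7.62% of all tested genes showed no overlap and 3.87% did so in the lower direction.

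The log2FC of SOAT1 was -0.64 in DOP (SE 0.15, adjusted p = 0.0600) and -0.65 in WCOC (SE 0.15, adjusted p = 0.0182), and the difference between the olive diets was -0.010 with a 95% interval of -0.31 to 0.29. In DOP the fold limit was passed and the adjusted p was not. With DESeq2 the adjusted p in DOP was 0.00559. With flow cell as a covariate the log2FC in DOP was -1.13 (adjusted p = 0.0136), a value that leans on control replicate 5, the control with the highest SOAT1. The same fit ended the call in WCOC (-0.49, adjusted p = 0.0366, under the fold limit), and so did flow cell A alone (-0.50, adjusted p = 0.0573) and the replicate numbers as a block (-0.63, adjusted p = 0.0557). The WCOC call was also lost without C replicate 5 (-0.49, adjusted p = 0.0370), WCOC replicate 1 (-0.61, adjusted p = 0.0543) or WCOC replicate 4 (-0.60, adjusted p = 0.0506). In DOP both limits were passed without C replicate 1 (-0.69, adjusted p = 0.0497) or C replicate 2 (-0.72, adjusted p = 0.0454).

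The controls were uneven in SOAT1. Replicates 3 and 5, at 38.3 and 48.0 CPM, stood apart from the other 3 at 26.7 to 29.4 CPM, and the same 2 libraries had the highest summed macrophage markers. Macrophage markers were mostly lower in both olive diets, as SOAT1 was. Against C, 16 of 16 had a log2FC below 0 in WCOC and 15 of 16 in DOP. In WCOC 16 had an unadjusted p under 0.05 and in DOP 10, as did 26.4% and 17.6% of all genes. Over all genes 6.25% passed both limits in WCOC against C and 0.764% in DOP against C. Of the 16 markers, 9 passed both limits in WCOC against C and all 9 were lower, among them TREM2 (log2FC -2.40), CD68 (-2.11) and LGALS3 (-1.90). In DOP 2 did, GPNMB (-2.64) and LGALS3 (-2.38). Without C replicate 3, C replicate 5 or WCOC replicate 1 the count in WCOC was 1, and without WCOC replicate 2 it was 15. Their summed level was 508 to 1496 CPM in C, 245 to 629 in DOP and 230 to 537 in WCOC. CSF1R was the most abundant, at 151 ± 67 CPM in C, 92.3 ± 30.3 in DOP and 74.7 ± 30.8 in WCOC, and no marker was at 0.

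With C replicates 3 and 5 left out, the log2FC of SOAT1 was -0.37 in WCOC (adjusted p = 0.126) and -0.36 in DOP (adjusted p = 0.366), neither past a limit, although the 3 remaining controls still lay above all 10 olive libraries. In the same fits INSIG1 stood at -0.85 in WCOC (adjusted p = 0.00682). The part that macrophage content has in the SOAT1 difference was not tested.

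**Figure D3:**
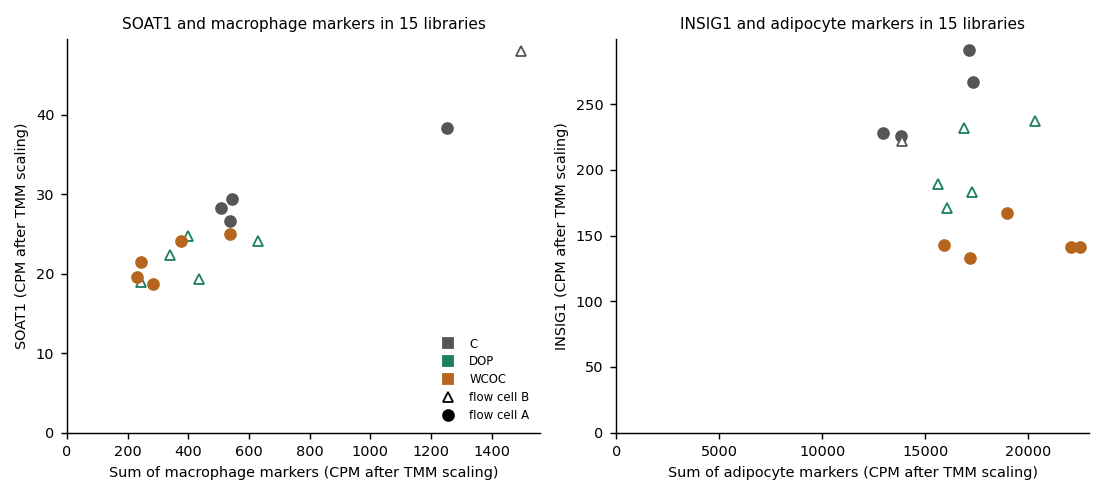
Level of SOAT1 against the summed level of 16 macrophage markers (left) and of INSIG1 against the summed level of 9 adipocyte markers (right), in CPM, with 1 point per library. The controls at 1252 and 1496 CPM of macrophage markers are those with the highest SOAT1. INSIG1 is lowest in WCOC, where the adipocyte sum is 15936 to 22495 CPM.

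NPC1 carries cholesterol out of the lysosome. Its level ran between 71.7 and 91.0 CPM in C, 63.8 and 90.5 in DOP, and 71.5 and 89.8 in WCOC, with wide overlap. In DOP replicates 2, 4 and 5 stood at 65.0, 63.8 and 65.5 CPM, and replicates 1 and 3 at 84.6 and 90.5 CPM. The lower 3 are the DOP libraries with high skeletal muscle markers. The log2FC was -0.15 in DOP (95% interval -0.36 to 0.06) and -0.07 in WCOC (-0.28 to 0.14).

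APOE, the secreted apolipoprotein that accepts exported cholesterol, was the most abundant member by far. It ran between 2400 and 4146 CPM in C, 2753 and 3440 in DOP, and 2686 and 4484 in WCOC. The log2FC against C was 0.0061 in DOP and 0.015 in WCOC, with 95% intervals of -0.34 to 0.35 in DOP and -0.33 to 0.36 in WCOC. WCOC replicate 2 held 4484 CPM, while the other WCOC libraries lay between 2686 and 2909.

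Per kilobase of exon, the mean level over the 15 libraries was 2840 CPM for APOE and 69.5 for INSIG1, which stood clear of each other and of the rest. SCAP (19.2 ± 1.6), NPC1 (17.8 ± 2.1) and SREBF2 (15.8 ± 2.7) followed within their SDs, then SOAT1 (7.34 ± 2.25). ABCA1 (2.85 ± 0.95) and ABCG1 (2.03 ± 0.63) again lay within their SDs, and NR1H3 (0.985 ± 0.151) was lowest. The exon length of APOE may be short of the true one, since its model is partial.

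Levels of the members were also compared with each other among pigs of the same diet. Over the 15 libraries, with each diet centred on its mean, log2 levels of ABCA1 and ABCG1 had a Pearson r of 0.71 (permutation p = 0.0110) and a Spearman rho of 0.65 (permutation p = 0.0232), each from 100000 two-sided permutations within diets. Over the 36 pairs of members the adjusted p of this r was 0.132, and no pair passed 0.05. Without the 2 libraries farthest from the median of ABCA1 its r was 0.77, and within the 9 libraries of flow cell A it was 0.69.

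APOE had a negative r with both exporters, r = -0.74 with ABCG1 (adjusted permutation p = 0.126) and r = -0.71 with ABCA1 (adjusted permutation p = 0.126). Without the 2 libraries farthest from the median of the exporter these values were -0.26 and -0.50, so the first rests on those libraries, WCOC replicate 2 and C replicate 4. SOAT1 and INSIG1, the members that fell in WCOC, had an r of -0.23 within diets.

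The genes whose pattern within diets was most like a member were picked by Pearson r over the 15 libraries among 9648 genes with a symbol and a mean of at least 5 CPM, and the values are descriptions. Nearest to SOAT1 were PDIA3 (0.93), LGMN (0.89) and RPS6KA1 (0.87), of which LGMN is a lysosomal protease abundant in macrophages. Nearest to ABCA1 were CCDC82 (0.95), TJP1 (0.92) and SLC35B3 (0.91), and to ABCG1 RFX5 (0.90), FUT11 (0.90) and SNX24 (0.89). INSIG1 had no near neighbour, with HSP70.2 and KMT5A each at 0.76. For SREBF2 they were MGP, PFN1 and FBLN5 (0.88 to 0.90), for SCAP SYNGR1, NCAPH2 and ABCA3 (each 0.88), for NPC1 XBP1, DNM2 and GTF3C6 (0.78 to 0.83), for NR1H3 NCKAP5L, THBS3 and DAGLB (0.80 to 0.82) and for APOE ADISSP, MRPL4 and PPP2R1A (0.94 to 0.95). The same libraries enter each of these values, and single libraries such as WCOC replicate 2 weigh on several of them.

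**Figure D4:**
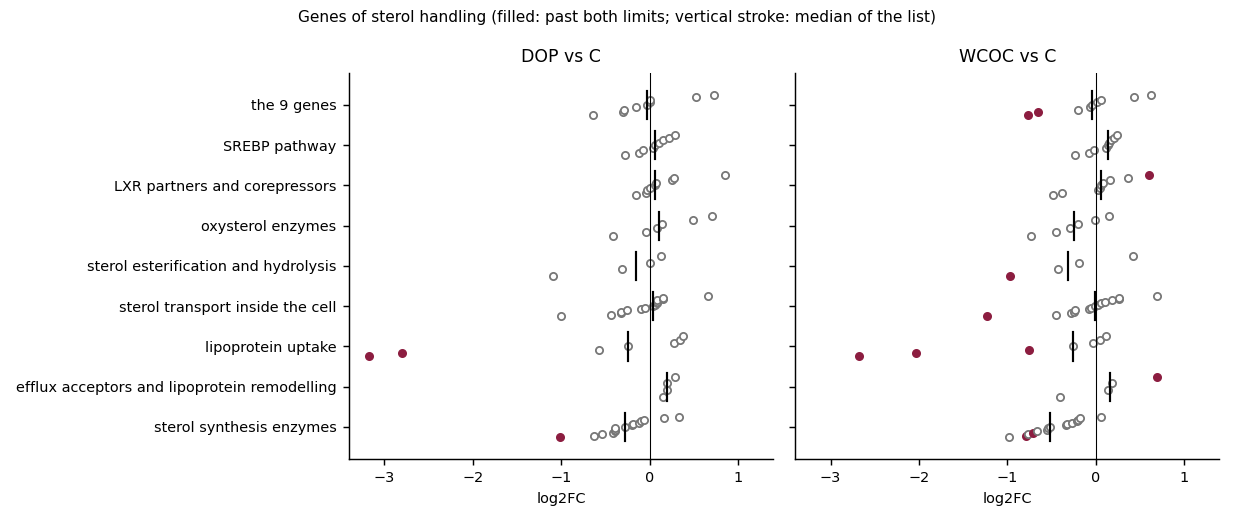
Fitted log2FC of genes of sterol handling by list, in DOP against C (left) and WCOC against C (right), with 1 point per gene. Filled points pass both limits and the vertical stroke is the median of a list. The sterol synthesis enzymes lie mostly below 0 in WCOC, with a median of -0.52, while the SREBP pathway genes have none past the limits.

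Other genes of the sterol circuit give the setting of these values. Both limits were passed by 6.25% of all tested genes in WCOC against C, 0.764% in DOP against C and 7.76% in WCOC against DOP. Of 15 enzymes of sterol synthesis tested, 14 had a log2FC below 0 in WCOC against C, with a median of -0.52 against 0.0043 over all genes. ACAT2, which makes acetoacetyl-CoA, fell (log2FC -0.79, adjusted p = 0.00793) and so did HMGCS1, the synthase of the next step (-0.71, adjusted p = 0.0192), and these 2 passed both limits. ACAT2 was 54.3 to 84.5 CPM in C and 28.2 to 47.7 CPM in WCOC. In DOP 13 of 15 lay below 0 (median -0.28, against 0.011 over all genes) and SQLE, the squalene epoxidase, passed both limits (-1.01, adjusted p = 0.0268).

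SQLE was 46.1 to 57.9 CPM in C and 20.2 to 29.9 CPM in DOP. Between the olive diets SQLE was higher in WCOC (0.80, adjusted p = 0.00542), and ACAT2 (-0.60, adjusted p = 0.0267) and DHCR7, the last reductase of the route (-0.85, adjusted p = 0.0352), were lower. In both olive diets the other enzymes of the list did not pass the limits in edgeR.

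In the list of lipoprotein uptake the scavenger receptors MSR1 (-2.68, adjusted p = 0.0175) and OLR1 (-2.04, adjusted p = 0.0306) fell in WCOC. Both were lower in DOP too, MSR1 at -3.18 (adjusted p = 0.0397) and OLR1 at -2.81 (adjusted p = 0.0382). MYLIP, a ubiquitin ligase and a target of the liver X receptor, rose in WCOC (0.60, adjusted p = 0.00261), from 25.7 to 33.6 CPM in C to 38.4 to 52.4 CPM.

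In the list of partners and targets of the liver X receptor, MYLIP was the 1 of 9 genes tested that passed in WCOC, and none passed in DOP in edgeR, DESeq2 or limma-voom, where 2 had an unadjusted p under 0.05. LPCAT3, a phospholipid remodelling enzyme of the same list, was lower in WCOC than in DOP (-0.66, adjusted p = 0.00924). Of 4 genes of sterol esterification and hydrolysis, NCEH1, a hydrolase of cholesteryl ester in macrophages, fell in WCOC (-0.97, adjusted p = 0.0323). Of 15 carriers of sterol inside the cell, STARD4 fell in WCOC (-1.23, adjusted p = 0.0101). Of 4 acceptors and lipoprotein proteins, APOM rose in WCOC (0.69, adjusted p = 0.0163), at a low level of 1.98 to 2.85 CPM. In DOP none of these 3 lists had a gene past both limits in edgeR or limma-voom, with 1, 3 and 1 at an unadjusted p under 0.05, and DESeq2 called NCEH1 and STARD4.

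The SREBP pathway holds the proteases and partners that act with SCAP and INSIG1. None of 9 genes tested in that list passed both limits in edgeR in any comparison, with 2, 3 and 4 at an unadjusted p under 0.05 in DOP against C, WCOC against C and WCOC against DOP, where 17.6%, 26.4% and 28.1% of all genes had one. None of 6 oxysterol enzymes passed, with 0, 1 and 2 at an unadjusted p under 0.05. DESeq2 and limma-voom called none in these 2 lists. INSIG2, the paralog of INSIG1, and SREBF1 were looked at after their values were seen. INSIG2 was 16.9 ± 1.4 CPM in C, 19.7 ± 1.5 in DOP and 16.8 ± 0.7 in WCOC, with a log2FC of -0.016 in WCOC against C (adjusted p = 0.924). SREBF1 had a log2FC of -0.28 in DOP (adjusted p = 0.309) and -0.23 in WCOC (adjusted p = 0.303).

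With C replicates 3 and 5 left out, ACAT2 (-0.92, adjusted p = 0.0186) and MYLIP (0.60, adjusted p = 0.0184) still passed both limits in WCOC. HMGCS1 (-0.76, adjusted p = 0.0668), STARD4 (-0.92, adjusted p = 0.0913) and APOM (0.63, adjusted p = 0.0957) did not, at fold changes close to the earlier ones except for STARD4. MSR1, OLR1 and NCEH1 moved to -1.38, -0.79 and -0.34. In DOP the log2FC of SQLE was -1.03 (adjusted p = 0.190), and MSR1 and OLR1 stood at -1.88 and -1.56. MSR1, OLR1 and NCEH1 had their highest levels in C replicates 3 and 5, at 59.7 and 107 CPM for MSR1. When 1 library at a time was left out, ACAT2 and STARD4 in WCOC against C and SQLE in WCOC against DOP passed both limits in all 10 fits. MSR1 and APOM passed in 9 of 10 in WCOC against C, HMGCS1 in 8, MYLIP in 7, NCEH1 in 5 and OLR1 in 4. In DOP against C SQLE passed in 5 of 10, and MSR1 and OLR1 in 3. Between the olive diets LPCAT3 passed in 9 of 10, ACAT2 in 7 and DHCR7 in 3. No direction changed in these fits. In flow cell A alone ACAT2, MYLIP and STARD4 passed both limits in WCOC against C, and HMGCS1 (-0.75, adjusted p = 0.0583), APOM (0.61, adjusted p = 0.100), MSR1 (-2.05, adjusted p = 0.0636), NCEH1 (-0.70, adjusted p = 0.129) and OLR1 (-1.31, adjusted p = 0.0831) did not. Without DOP replicates 2, 4 and 5, the libraries with high muscle markers, none of the calls in these lists that involve DOP passed. Between the olive diets SQLE was then 0.65 (adjusted p = 0.171), ACAT2 -0.70 (adjusted p = 0.195), LPCAT3 -0.73 (adjusted p = 0.109) and DHCR7 -0.77 (adjusted p = 0.357). In DOP against C SQLE was -0.87 (adjusted p = 0.529), MSR1 -2.71 and OLR1 -2.31 (adjusted p = 0.641 for both).

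Some genes of the other marker lists passed both limits. Of all tested genes 6.25% did so in WCOC against C (3.93% lower), 0.764% in DOP against C and 7.76% in WCOC against DOP. A single call in a list of 7 to 9 genes therefore says little about the list. Of 9 fibroblast and progenitor markers, 3 were lower past both limits in WCOC against C, LUM (-1.17), COL1A1 (-0.93) and COL1A2 (-0.91), and the summed level was 23016 to 34593 CPM in C, 19764 to 31015 in DOP and 14536 to 25344 in WCOC, COL3A1 being the most abundant. Of 9 adipocyte markers ADIPOQ was higher in WCOC (0.66), and of 9 endothelial markers CLDN5 was (0.75), PECAM1 being the most abundant of that list. Of 7 lymphocyte markers NKG7 was lower (-1.70), CD247 being the most abundant. None of 7 skeletal muscle markers, led by ACTA1, and none of 5 epidermis markers, led by KRT10, passed in WCOC against C in edgeR, DESeq2 or limma-voom, or had an unadjusted p under 0.05, and none of these 6 lists gave a call in DOP against C, where DESeq2 called 1 endothelial and 1 lymphocyte marker and limma-voom none. At an unadjusted p under 0.05 in DOP against C stood 2 adipocyte, 5 endothelial, 0 fibroblast, 3 muscle, 1 lymphocyte and 4 epidermis markers, beside 17.6% of all genes. In WCOC against DOP 2 adipocyte markers, LEP (1.08) and PLIN4 (0.70), and 2 epidermis markers, DSG1 (5.59) and KRT1 (5.24), were higher. The summed CPM of 5 epidermis markers was 145 in WCOC replicate 5 and 33.2 in WCOC replicate 2. In the other WCOC libraries it was 3.21 to 3.88. In DOP it was 3.33 to 22.7, and the DOP median of 8.49 lay above the WCOC median of 3.88. Lower past both limits in WCOC against DOP were 4 of 7 muscle markers, led by CASQ1 (-6.04), TNNC2 (-5.87) and TNNT1 (-5.75), as well as LUM (-1.06), PDGFRA (-0.58) and the macrophage marker CD163 (-1.30). The part that these shifts have in the values of the 9 members was not tested.

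The reads of SOAT1 and ABCA1 were also set against each other, a ratio chosen after the values were seen and given without a test. It was 0.933 to 2.04 in C, 0.474 to 0.739 in DOP and 0.453 to 1.66 in WCOC. All DOP libraries lay below all controls. That outcome was fixed, since SOAT1 was lower and ABCA1 higher in all DOP libraries than in any control. In WCOC 4 of 5 libraries lay below all controls, with replicate 2 at 1.66. The count of ABCG1 reads per ABCA1 read was 0.345 to 0.517 in C, 0.297 to 0.426 in DOP and 0.312 to 0.669 in WCOC, with overlap between all diets.

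**Figure D5:**
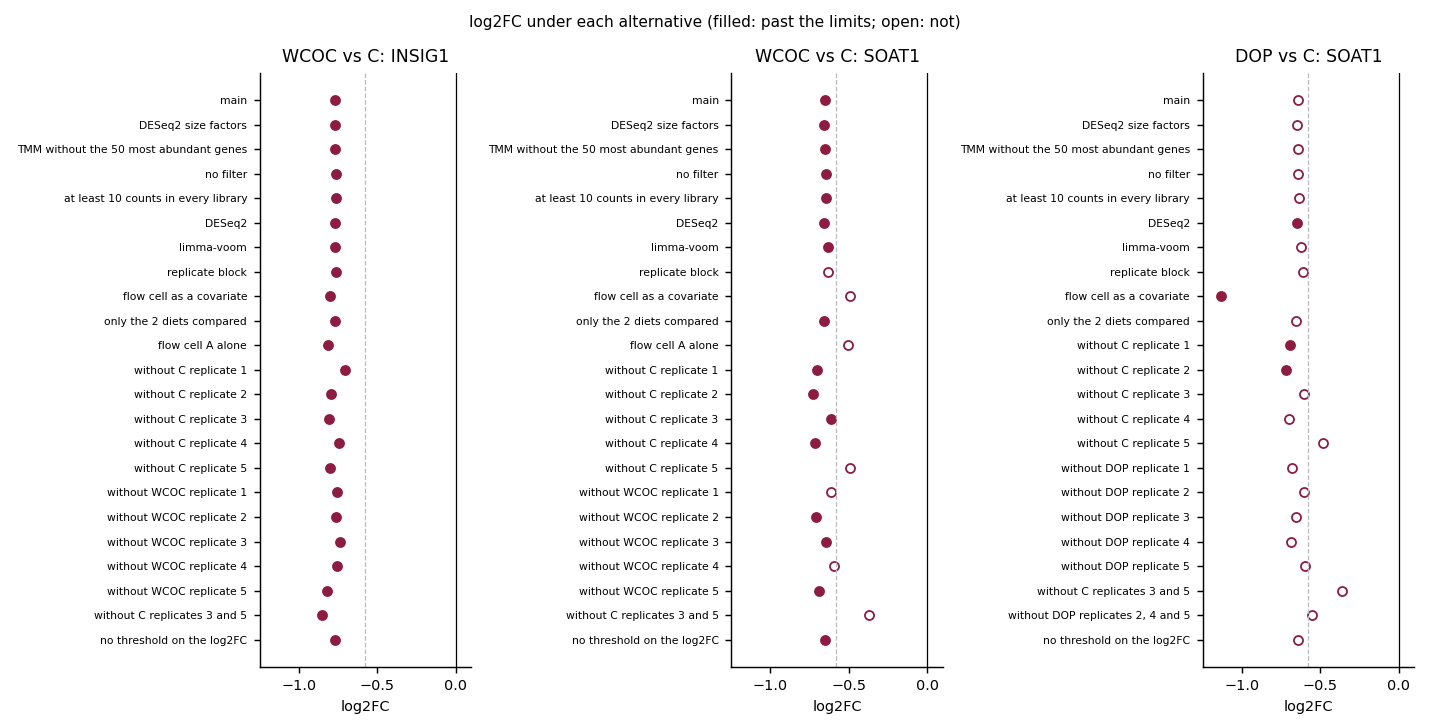
Log2FC under each alternative analysis for INSIG1 and SOAT1 in WCOC against C and for SOAT1 in DOP against C. Filled points pass both limits and the dashed line marks -0.58. INSIG1 is filled throughout, SOAT1 in WCOC is open when C replicate 5 is left out and in 6 other settings, and SOAT1 in DOP is filled in 4.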

How the data were processed

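Backfat RNA of 15 Iberian pigs, 5 per diet, was sequenced as 1 library per pig. According to the labels and the study's methods, the authors aligned read pairs to Sscrofa11.1 with HISAT2. The deposited files hold the raw counts that HTSeq gave for each Ensembl gene. Neither the Ensembl release nor the strand setting of HTSeq is given in the sources used here, so counts of overlapping genes are uncertain. The 5 summary lines of each file (23.4% to 32.8% of read pairs) stayed out of library sizes and tests. Diets and replicate numbers were taken from the labels and flow cells from run identifiers.

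Counts were fitted in R 4.3.3 with edgeR 4.0.16: filterByExpr (14918 genes), TMM scaling, and quasi-likelihood F-tests in 1 fit of the 15 libraries with a mean for each diet (common dispersion 0.0814). The two-sided p-values were adjusted by Benjamini-Hochberg across the genes tested. Calls needed an adjusted p below 0.05 together with an absolute log2FC of 0.58 or more. CPM are counts scaled to a common effective library size, log2 CPM used a prior count of 1, and intervals are 95% intervals from the SE. DESeq2 1.42.0 and limma 3.58.1 were alternatives, beside other scaling, other filters, fits on only the diets compared, a replicate block, flow cell as a covariate or flow cell A alone, and each library left out in turn. The workflow was tested on simulated data.

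The 9 members and the 15 lists of sterol and marker genes were chosen with earlier results of these data known. The lists were written from general knowledge, and 141 of their 169 entries could be matched to an identifier through a table of 14864 symbols. Named from the lists are the genes past both limits, at most 3 per list and comparison, and the most abundant marker of each list. Some genes that this rule selects are not reported here. Counts per library set the precision, from 57 reads (NR1H3) to 119772 (APOE). Promoters are RefSeq sequence of Sscrofa11.1, from 250 bases before to 50 after the start of a gene. Python 3.11.15 was used for summaries and plots.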

Additional observations from a re-analysis of the deposited data

Results flagged for a closer look

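Of the 27 sets of 5 libraries (9 members in 3 diets), 3 had a library far from the others by Dixon's criterion, where chance marks about 1 set in 20. WCOC replicate 5 had the highest INSIG1 of its diet, 167 CPM, and the nearest library stood at 143 CPM. It was still below all libraries of the other diets. DOP replicate 1 had the highest ABCA1 of all libraries, 50.9 CPM, where the nearest DOP library stood at 34.4 CPM. Without it the other 4 DOP libraries still lay above all controls. WCOC replicate 2 had the highest APOE, 4484 CPM, where the nearest WCOC library stood at 2909 CPM. The same library also held the highest SREBF2 (121 CPM) and SCAP (104 CPM) and the lowest ABCA1 (15.05 CPM) of all 15 libraries.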

How the results depend on the processing

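The number of members called in DOP against C was 0 and became 1, SOAT1, with DESeq2 and with flow cell as a covariate, and 0 to 1 when single libraries were left out (1 without C replicate 1 or C replicate 2). In WCOC against C it was 2 and became 1, INSIG1, under a replicate block, with flow cell as a covariate, in flow cell A alone and, an alternative chosen after seeing the data, without C replicates 3 and 5. It ran from 1 to 3 when single libraries were left out (1 without C replicate 5, WCOC replicate 1 or WCOC replicate 4, and 3, ABCG1 being added, without WCOC replicate 2). SOAT1 had a log2FC of -0.49 with flow cell as a covariate and -0.50 in flow cell A alone (adjusted p = 0.0573). In WCOC against DOP the number called was 0 and became 1, INSIG1, with no threshold on the log2FC. The count of pairs of members that vary together was 0 and stayed 0 without the 2 farthest libraries and within flow cell A. Flow cell B held too few libraries of more than 1 diet for a value.

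The replicate numbers do not pair the pigs, since same-numbered deviations correlated from -0.50 to 0.34. With the numbers as a replicate block the members called were 0, 1 and 0 in the 3 comparisons, and SOAT1 in WCOC against C stood at -0.63 (adjusted p = 0.0557). The calls over all genes moved with the block from 114 to 0, from 933 to 473 and from 1158 to 561.

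Over all genes the calls in DOP against C were 518 with DESeq2, 19 with limma-voom, 2 with only the 2 diets fitted, 0 without C replicates 3 and 5, 0 without DOP replicates 2, 4 and 5 (also chosen after seeing the data) and 0 to 200 with single libraries left out. In WCOC against C they were 486 in flow cell A alone, 289 without C replicates 3 and 5, 1493 with no threshold on the log2FC and 468 to 1163 with single libraries left out. In WCOC against DOP they were 1 with flow cell as a covariate, 80 without DOP replicates 2, 4 and 5, 1842 with no threshold and 639 to 1291 with single libraries left out. The causes were not tested. Without those DOP libraries 4 called muscle markers turned in WCOC against DOP, TNNT1 to 1.74, TNNT3 to 0.38, TNNC2 to 0.84 and CASQ1 to 0.43.

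Fold changes near 0 changed sign, none of them called. In DOP against C these were SCAP (0.13 with flow cell as a covariate, 0.061 without DOP replicates 2, 4 and 5), NPC1 (0.097 without those DOP libraries), APOE (-0.00026 with DESeq2, -0.0053 with only the 2 diets, -0.082 without C replicates 3 and 5, -0.074 to 0.13 with single libraries left out) and NR1H3. NR1H3 was -0.0039 with the size factors of DESeq2, -0.0018 without a filter, -0.013 with DESeq2, -0.00076 with limma-voom, -0.12 with flow cell as a covariate, -0.011 with only the 2 diets, -0.095 without those DOP libraries, and -0.098 to 0.11 with single libraries left out. In WCOC against C they were SCAP (-0.020 without C replicates 3 and 5, -0.013 to 0.089 with single libraries left out), NR1H3 (0.17 and -0.13 to 0.070) and APOE (-0.074 and -0.16 to 0.14, and -0.057 with flow cell as a covariate and -0.067 in flow cell A alone). In WCOC against DOP, with flow cell as a covariate, SOAT1 was 0.64, SCAP -0.12, NR1H3 0.11 and APOE -0.39. Without DOP replicates 2, 4 and 5 SCAP was -0.011, NR1H3 0.049, NPC1 -0.17 and APOE -0.045, and APOE was -0.010 with limma-voom. With single libraries left out SOAT1 ran from -0.068 to 0.052, SREBF2 from -0.020 to 0.18, NR1H3 from -0.098 to 0.053, ABCG1 from -0.023 to 0.26 and APOE from -0.16 to 0.069.

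With 5 pigs per diet and 1 pen per diet, changes under the fold limit are resolved poorly for ABCA1 and ABCG1, whose spread within diets was 0.41 and 0.39 on the log2 scale. NR1H3 rests on few reads.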
